A study of Mus musculus with 24 samples.

Results

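Each group of this time course held 2 libraries, and at ZT4 and ZT8 the 2 libraries of a group stood far apart in their immediate-early genes. The 8 libraries of those times, of 24 in all, were split by that difference within each group. The high libraries were replicate 1 of ZT4 and replicate 2 of ZT8 in both alpha and beta cells, and the low libraries were replicate 2 of ZT4 and replicate 1 of ZT8, which gave 4 high and 4 low libraries in 4 pairs. The libraries were thus chosen by their measured levels of Fos, Atf3 and Egr2, and every difference between high and low below is a description without a test. Tests were made only in the 16 libraries of ZT0, ZT12, ZT16 and ZT20, which the split did not use.

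The glucagon-producing alpha cells and insulin-producing beta cells are endocrine cells of the pancreatic islet. Both came from a triple reporter mouse strain, with islets isolated at ZT4 or ZT8 (zeitgeber time, hours of the lighting cycle), and no treatment is named for any group. The sources used here do not give age, sex, the alleles of the reporters, the number of animals per library or the way the cells were separated. The labelled cell types held in the hormone genes: Gcg (glucagon) took 16.01% to 24.2% of the reads of an alpha library, and Ins1 and Ins2 together took 16.4% to 26.03% of the reads of a beta library. The libraries had 4944982 to 12364190 reads, and the 8 at ZT4 and ZT8 had 9940536 to 12364190.

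Immediate-early genes are transcribed within minutes of a stimulus without new protein synthesis. Calcium and cAMP signals reach them through the factor CREB and the MAP kinases through serum response factor, and their RNAs are short-lived because feedback genes switch off the kinases and degrade the messages. In islet cells glucose, depolarization and cAMP-raising hormones switch them on.

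Over the 14027 genes, 178 (1.27%) were higher in the high library of all 4 pairs with a mean difference of at least 2-fold, and 6 (0.0428%) were lower by the same measure. Without the demand on size, 2164 genes (15.4%) were higher and 2416 (17.2%) lower in all 4 pairs. Large differences shared by all 4 pairs thus lay almost wholly on the higher side. Within single pairs, 274 to 719 genes were at least 2-fold higher and 132 to 221 at least 2-fold lower. Of the 178 genes, 119 had a mean log2 RPKM (reads scaled to gene length and library size) above 0. Of the 178, 25 belonged to the lists of early factors, feedback genes and cAMP targets. With the depolarization and NF-kB lists these were 29, called early and feedback genes below, and with the heat shock list 32, while 142 belonged to none of the gene lists used here. At the edge of the count, Lrrc45 had a mean log2 difference of 1.01 and Ttn, just outside, of 0.99. Across all genes the differences of the pairs correlated with each other at r = 0.229 to 0.422 (4 pairs, 14027 genes that share libraries and scaling, given as a description). The median of the mean log2 differences over all genes was -0.02.

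AP-1 subunits, the basic leucine zipper proteins that pair to form the AP-1 transcription factor, were higher in the high library of every pair for all 8 measured members, 7 of them by at least 2-fold. Fos, on chromosome 12 from 85473890 to 85477273 (GRCm38, the assembly named mm10), had 532 RPKM in the high and 186 RPKM in the low library of alpha ZT4, 854 and 133 at alpha ZT8, 241 and 122 at beta ZT4, and 468 and 69.7 at beta ZT8. Its mean log2 difference was 1.98 ± 0.87 (SD, n = 4 pairs). Alpha and beta libraries of a time may share a source, which the labels do not give, so the 4 pairs may be fewer separate units. Atf3, a stress-induced member of the family on chromosome 1 from 191170296 to 191218039, had 24.8 and 4.72 RPKM at alpha ZT4, 299 and 1.34 at alpha ZT8, 1.05 and 0.110 at beta ZT4, and 8.001 and 0.437 at beta ZT8. The ZT8 alpha pair thus differed far more than the others, and the beta ZT4 value rests on 22 and 2 reads. Egr2, a zinc finger factor on chromosome 10 from 67535475 to 67542188, had 1.38 and 0.108 RPKM at alpha ZT4, 15.9 and 0.181 at alpha ZT8, 0.112 and 0 at beta ZT4, and 0.435 and 0.0284 at beta ZT8. In beta cells Egr2 had at most 15 reads in these libraries, and no fold is given there. These 3 genes defined the split. The others followed them: Jun had a mean log2 difference of 2.03 ± 0.53, Fosb of 1.96 ± 0.96 and Fosl2 of 1.79 ± 1.34 (SD, n = 4 pairs).

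**Figure D1:**
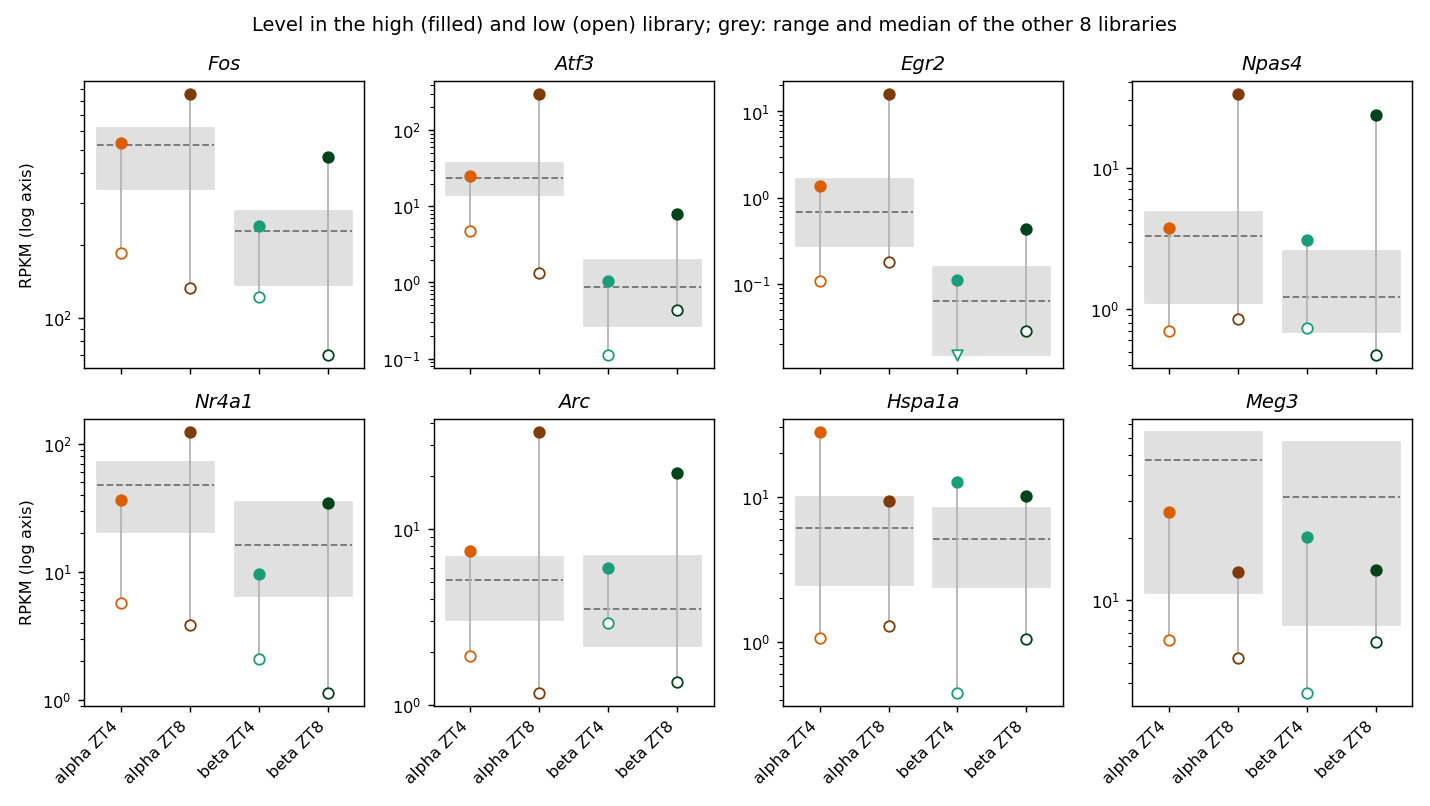
RPKM (log axis) of 8 genes in the high library (filled) and the low library (open) of the 4 pairs. The grey band and dashed line are the range and median of the other 8 libraries of the same cell type, and the triangle for Egr2 marks a level of 0 drawn at the foot of the axis. Fos at alpha ZT8 runs from 133 to 854 RPKM, beyond the grey band at both ends, while at alpha ZT4 the high library sits at 532 RPKM inside it.

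Among the other early transcription factors, 12 of 20 were higher in all 4 pairs, 10 by at least 2-fold. Npas4, a factor that responds to calcium entry in neurons and beta cells, had 3.71 and 0.7002 RPKM in the high and low library of alpha ZT4, 33.1 and 0.845 at alpha ZT8, 3.10 and 0.736 at beta ZT4, and 23.6 and 0.471 at beta ZT8. Nr4a1, an orphan nuclear receptor, had 36.1 and 5.68 RPKM at alpha ZT4, 125 and 3.82 at alpha ZT8, 9.66 and 2.08 at beta ZT4, and 34.4 and 1.13 at beta ZT8. For both genes the high and low libraries of a cell type did not overlap, and the difference at ZT8 exceeded that at ZT4 in each cell type. Ier2, a nuclear early protein, had 84.1 and 27.4 RPKM at alpha ZT4, 152 and 23.1 at alpha ZT8, 33.7 and 13.6 at beta ZT4, and 48.5 and 7.92 at beta ZT8, with the same order of the times. Klf2, a Krüppel-like factor, had a mean log2 difference of 2.52 ± 1.43 (SD, n = 4 pairs) on at most 53 reads per library. The list was not uniform: Egr4, another Egr family factor, ran from -1.43 at beta ZT4 (0 reads in the high and 3 in the low library) to 6.03 at alpha ZT8.

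Genes driven by cAMP, calcium and depolarization formed part of the set. Of 14 targets of cAMP and CREB, 8 were higher and 1 lower in all 4 pairs, 4 of them higher by at least 2-fold. Sik1, a kinase that restrains the coactivators of CREB, had 9.80 and 2.24 RPKM at alpha ZT4, 16.1 and 1.96 at alpha ZT8, 2.46 and 0.705 at beta ZT4, and 3.85 and 1.03 at beta ZT8 (high and low library). Gem, a small GTPase that inhibits calcium channels, had 3.33 and 1.18 RPKM at alpha ZT4, 31.9 and 1.12 at alpha ZT8, 6.76 and 3.75 at beta ZT4, and 12.5 and 4.67 at beta ZT8. The high library of alpha ZT8 stood out for Gem, as it did for Atf3 and Egr2. Of 10 measured genes of the depolarization list, 3 were higher in all 4 pairs. They included Arc, a cytoskeletal protein of synaptic activity, with 7.55 and 1.89 RPKM at alpha ZT4, 35.7 and 1.17 at alpha ZT8, 6.02 and 2.94 at beta ZT4, and 20.9 and 1.36 at beta ZT8. The other 7 did not keep a sign, among them Pcsk1 and Scg2, which encode a prohormone convertase and a granin.

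Feedback genes were higher in part. Of 14 genes of MAP kinase feedback, 7 were higher in all 4 pairs and 2 by at least 2-fold, namely the phosphatase gene Dusp1 (mean log2 difference 1.69 ± 0.75) and Errfi1 (1.48 ± 0.81), an inhibitor of the EGF receptor. Of 11 genes of RNA decay and growth arrest, 9 were higher in all 4 pairs. Zfp36, whose protein destabilizes AU-rich messages, had 55.7 and 26.7 RPKM at alpha ZT4, 121 and 17.6 at alpha ZT8, 12.6 and 7.58 at beta ZT4, and 18.1 and 5.002 at beta ZT8. Of 10 NF-kB targets and inhibitors, 6 were higher in all 4 pairs, led by the ubiquitin-editing enzyme gene Tnfaip3 (1.33 ± 1.08) and Nfkbiz (1.24 ± 0.62). Of 6 secreted early proteins 3 were, with Cyr61 at 1.67 ± 1.41 on 2 to 62 reads in the high libraries. These counts are to be read against the 15.4% of all genes that were higher in all 4 pairs.

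The sequences before the transcription start are shown for 2 early genes driven by CREB and for the heat shock gene described next, because they hold the best-known motifs of those responses. They were taken from the RefSeq promoter table (GRCm38.p6), 5′ to 3′ on the gene's strand, and end at the base before the start. Capitals mark the CRE core TGACG on either strand in Fos (chr12:85473640-85473889, plus strand) and Nr4a1 (chr15:101266596-101266845, plus strand), and the inverted heat shock repeat GAANNTTC in Hspa1a (chr17:34972157-34972406, minus strand).
Fos: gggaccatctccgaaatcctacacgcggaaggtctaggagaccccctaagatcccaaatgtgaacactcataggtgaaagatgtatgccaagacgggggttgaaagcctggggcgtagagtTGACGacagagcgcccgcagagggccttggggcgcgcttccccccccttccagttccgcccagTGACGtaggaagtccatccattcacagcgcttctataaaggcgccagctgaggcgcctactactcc
Nr4a1: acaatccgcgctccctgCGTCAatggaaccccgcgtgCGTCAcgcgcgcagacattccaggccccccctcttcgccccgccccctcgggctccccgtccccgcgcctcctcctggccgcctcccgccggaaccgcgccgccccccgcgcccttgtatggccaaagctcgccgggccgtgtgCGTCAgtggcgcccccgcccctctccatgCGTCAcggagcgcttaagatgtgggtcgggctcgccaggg
Hspa1a: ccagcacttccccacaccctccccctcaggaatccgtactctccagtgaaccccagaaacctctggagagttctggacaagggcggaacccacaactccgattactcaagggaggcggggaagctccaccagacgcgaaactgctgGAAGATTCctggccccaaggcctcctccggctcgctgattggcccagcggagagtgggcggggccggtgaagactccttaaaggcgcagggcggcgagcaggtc
The Fos stretch held 2 CRE cores, the Nr4a1 stretch 4 and the Hspa1a stretch 1 heat shock repeat. Over 300-base windows (250 before and 50 after the start, both strands), TGACG was found for 18 of the 22 early and feedback genes counted higher that had an entry (81.8%), for 24 of the 83 other genes counted higher outside the heat shock list (28.9%) and for 35.8% of the 9368 genes of the table with an entry. The full CRE TGACGTCA, which contains TGACG, was found for 5 of the 22 (22.7%), 6 of the 83 (7.2%) and 3.7%. The AP-1 motif TGANTCA differed less, at 9.1%, 6.0% and 5.9%. The CArG box, the motif of serum response factor, stood at 9.1%, 4.8% and 1.6%, and the heat shock repeat was found for 2 of 3 heat shock genes and for 7.2% of the table. A match describes the letters and is not evidence of binding. The early and feedback genes include the list of cAMP and CREB targets, so a high share of the CRE core among them was partly set by the choice of lists.

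Of all 14027 genes, Hspa1b had the largest mean log2 difference (4.34 ± 1.29, SD, n = 4 pairs), followed by Atf3 (4.11 ± 2.49) and Hspa1a (3.82 ± 0.96). Hspa1b and Hspa1a, which encode the inducible HSP70 chaperone, lie 9951 bases apart on chromosome 17, on the minus strand from 34956436 to 34959238 and from 34969190 to 34972156. Hspa1b had 27.6 and 0.426 RPKM in the high and low library of alpha ZT4, 7.22 and 0.879 at alpha ZT8, 13.1 and 0.352 at beta ZT4, and 8.86 and 0.653 at beta ZT8. Hspa1a had 28.0 and 1.06 RPKM at alpha ZT4, 9.34 and 1.28 at alpha ZT8, 12.6 and 0.445 at beta ZT4, and 10.1 and 1.04 at beta ZT8. The low libraries had 9 to 37 reads of either gene and did not overlap the high ones. The coding sequences are near-identical, so the split of reads between both genes is uncertain. In contrast to the early factors, both differed more at ZT4 than at ZT8. Dnajb1, the HSP40 partner of HSP70, had a mean log2 difference of 1.62 ± 0.45 and Hsph1, an HSP110 chaperone, of 0.83 ± 0.52 (SD, n = 4 pairs). Of 14 heat shock genes 7 were higher in all 4 pairs and 3 by at least 2-fold.

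In other stress programs few genes passed 2-fold. Of 17 genes of the integrated stress response, 4 were higher and 3 lower in all 4 pairs, with Ddit4, an inhibitor of mTORC1, at a mean log2 difference of 1.01 ± 0.39. In the unfolded protein response 2 of 17 genes were higher, of which Syvn1 reached 0.44 ± 0.27, and 0 passed 2-fold. Of 12 genes of oxidative stress and metallothioneins, 0 were higher and 3 lower, among them the peroxiredoxin gene Prdx1 (-0.29 ± 0.17). The p53 list had 3 of 13 higher, the hypoxia list 3 of 12, the glucocorticoid list 5 of 9 and cholesterol synthesis 1 of 20. In the p53, hypoxia and glucocorticoid lists 1 gene each passed 2-fold (Btg2, Ddit4 and Errfi1), and 0 did in cholesterol synthesis. Each of these counts names genes with the same sign in all 4 pairs, for which all genes gave 15.4% higher and 17.2% lower. Btg2, Ddit4, Errfi1, Bhlhe40 and Per1 were members of several lists, so the lists are not separate evidence.

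Among 19 core clock genes, 4 were higher and 2 lower in all 4 pairs, and 0 passed 2-fold. Per1, a clock gene that is also a CREB target, had 11.8 and 6.81 RPKM in the high and low library of alpha ZT4, 12.8 and 6.25 at alpha ZT8, 6.25 and 3.21 at beta ZT4, and 8.33 and 6.44 at beta ZT8. At each time and in each cell type the replicate in the high library was thus above its partner. Its mean log2 difference of 0.79 ± 0.29 (SD, n = 4 pairs) stands beside 0.57 ± 0.37 for Per3. For the whole clock list the median was 0.03.

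Beyond the early and heat shock genes, the set held nuclear RNAs. These long noncoding transcripts stay in the nucleus, where Neat1 builds paraspeckles and Malat1 sits in nuclear speckles. Meg3, the imprinted noncoding RNA on chromosome 12 from 109541001 to 109571726, had 26.6 and 6.47 RPKM at alpha ZT4, 13.7 and 5.28 at alpha ZT8, 20.2 and 3.59 at beta ZT4, and 13.9 and 6.30 at beta ZT8 (high and low library). Neat1 had 4.09 and 1.51 RPKM at alpha ZT4, 2.68 and 0.845 at alpha ZT8, 11.0 and 2.44 at beta ZT4, and 6.55 and 2.77 at beta ZT8. For both RNAs the low libraries lay below the high ones of the same cell type. Malat1 had a mean log2 difference of 0.75 ± 0.42 and took 0.371% to 1.03% of the reads of the low and 0.671% to 1.75% of those of the high libraries. Annotated genes overlap Meg3, Neat1 and Malat1, so some of their reads may belong to the partners. Of 5 measured nuclear RNAs 3 were higher in all 4 pairs. The nuclear RNA 7SK, which is not one of these 5, did not keep a sign. Its log2 difference, replicate 1 minus replicate 2, was -1.32 at alpha ZT4 and -1.28 at beta ZT4, where replicate 1 is the high library. It was -0.52 at alpha ZT8 and 0.08 at beta ZT8, where replicate 1 is the low library.

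Named genes outside the lists included Sap25, a subunit of the mSin3 corepressor complex, and Col27a1, a fibrillar collagen. Sap25 had 2.94 and 0.351 RPKM at alpha ZT4, 1.28 and 0.327 at alpha ZT8, 1.99 and 0.210 at beta ZT4, and 1.13 and 0.246 at beta ZT8, with 3 to 6 reads in the low libraries and another annotated gene on the same strand over it. Col27a1 had 3.18 and 0.735 RPKM at alpha ZT4, 1.37 and 0.486 at alpha ZT8, 1.08 and 0.0836 at beta ZT4, and 0.587 and 0.228 at beta ZT8. Both were low in all 4 low libraries. Of the 175 annotated genes among the 178, 138 (78.9%) were protein-coding and 26 long noncoding, against 90.4% protein-coding of all annotated genes. The 32 genes of the early, feedback and heat shock lists had a median of 4 exons (in the transcript with the most exons) and spanned 5643 bases. The other 146 had 10 exons and 10289 bases, and all genes had 9 exons and 23001.5 bases.

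The early and feedback genes and the 146 genes outside those lists and the heat shock list were apart in time. Of the 32 early, feedback and heat shock genes counted higher, 29 differed more at ZT8, with a median log2 difference over the 32 of 1.17 at ZT4 and 2.35 at ZT8. The 3 that differed more at ZT4 were the heat shock genes Hspa1b, Hspa1a and Dnajb1. Of the other 146, 123 differed more at ZT4, with medians of 1.51 and 1.04. The contrast between the times was not tested, since all these values chose the genes. Of all genes, 561 at alpha ZT4 and 719 at beta ZT4 were at least 2-fold higher in the high library. At alpha ZT8 and beta ZT8 these were 274 and 357. At least 2-fold lower were 221 at alpha ZT4, 132 at beta ZT4, 160 at alpha ZT8 and 158 at beta ZT8. The ZT4 pairs thus stood wider apart on the higher side, and on the lower side in alpha cells only. Between the cell types the 178 were more even, with 101 differing more in alpha and 77 more in beta cells.

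**Figure D2:**
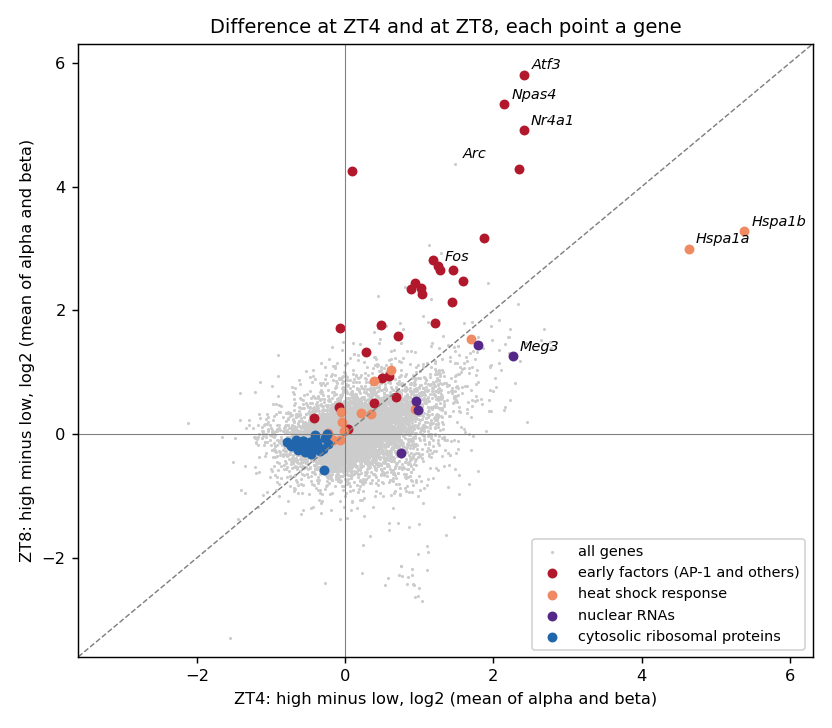
Each point is a gene, with the log2 difference between the high and the low library (mean of alpha and beta cells) at ZT4 on the x axis and at ZT8 on the y axis, and the dashed line marks equal differences. Early factors such as Npas4 lie above the line, Hspa1a, Hspa1b and Meg3 below it, and the cytosolic ribosomal proteins sit in the lower left near 0.

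On the lower side the differences shared by all 4 pairs were small and broad. Of 41 cytosolic ribosomal protein genes 34 were lower in the high library of all 4 pairs (17.2% of all genes were), with a median log2 difference of -0.37, and 0 were higher. The medians by pair were -0.59 at alpha ZT4, -0.29 at alpha ZT8, -0.44 at beta ZT4 and -0.09 at beta ZT8. Of 44 respiratory chain genes 21 were lower in all 4 pairs, with a median of -0.22. With scaling to total reads, which moved the median of all genes from -0.02 to 0.10, these counts were 24 and 11 genes and the medians -0.24 and -0.09. Rps14, a protein of the small ribosomal subunit, had 135 RPKM in the high and 259 RPKM in the low library of alpha ZT4, 244 and 299 at alpha ZT8, 110 and 157 at beta ZT4, and 149 and 160 at beta ZT8. The high and low libraries did not overlap within a cell type in alpha cells, where both low libraries were the higher ones, nor in beta cells.

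The 6 genes lower by at least 2-fold had Pttg1 at the largest difference, the securin of chromosome separation, on chromosome 11 from 43420250 to 43426251. Pttg1 had 0.488 RPKM in the high and 1.47 RPKM in the low library of alpha ZT4, 1.24 and 3.18 at alpha ZT8, 0.569 and 1.75 at beta ZT4, and 1.18 and 3.37 at beta ZT8. Its log2 difference of -1.41 ± 0.08 (SD, n = 4 pairs) was nearly the same in each pair, on 11 to 70 reads per library. Among 12 cell cycle genes only 2 had the same sign in all 4 pairs, and both were higher. Ptpla (-1.15 ± 0.53) had 4 to 29 reads, and Rpsa-ps11 (-1.16 ± 0.52) is a pseudogene whose reads cannot be told from those of its parent gene. Gpr81, the lactate receptor gene, had a log2 difference of -0.88 ± 0.58, with 13.7 and 27.0 RPKM at alpha ZT4 but 22.0 and 22.8 RPKM at alpha ZT8.

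**Figure D3:**
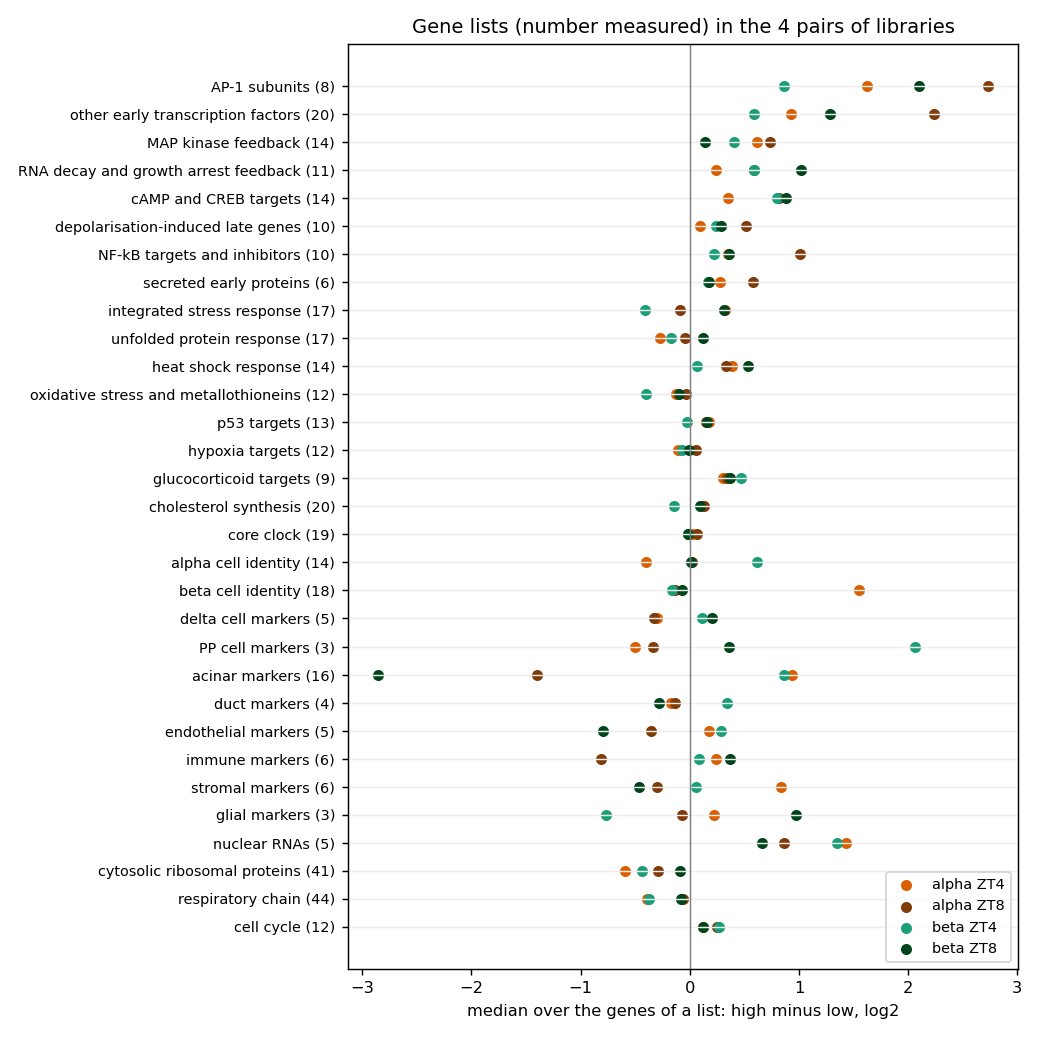
Median log2 difference, high minus low library, over the measured genes of each list (number in brackets), a point for each of the 4 pairs. AP-1 subunits lie to the right of 0 in all 4 pairs, ribosomal proteins to the left, and acinar markers on both sides (0.93 at alpha ZT4 and -2.85 at beta ZT8).

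Set against the 8 other libraries of the same cell type, much of the difference lay in the low libraries. Those 8 came from ZT0, ZT12, ZT16 and ZT20, so the split and the time of day cannot be told apart in this comparison. Of the 178 genes, the low library lay below all 8 others for 148 at alpha ZT4, 158 at alpha ZT8, 120 at beta ZT4 and 117 at beta ZT8. Over all genes this held for 2216, 2485, 2879 and 2405 of 14027. The 178 genes were chosen by being lower in these low libraries than in their partners. A share above that of all genes was thus partly set by the choice. The high library lay above all 8 for 18, 35, 18 and 30 of the 178, against 1580, 2058, 1490 and 1641 of all 14027 genes, so at ZT4 the share was near that of all genes. AP-1 subunits differed between the times here. At alpha ZT8 all 8 were above the other libraries in the high and below them in the low library, whereas at alpha ZT4 only 1 was above in the high library and all 8 were below in the low. In beta cells the high library was above for 0 of 8 at ZT4 and 6 of 8 at ZT8. Fos in the other 8 alpha libraries ran from 343 to 615 RPKM (median 522). The 532 RPKM of the high ZT4 library lay within that range and the 186 RPKM of its partner below it. Hspa1a went beyond the others in both directions at ZT4, where alpha cells had 28.0 and 1.06 RPKM against 2.46 to 9.97 elsewhere. For Meg3 the high alpha libraries, at 26.6 and 13.7 RPKM, lay within the 10.8 to 64.4 RPKM of the other libraries and below their median of 46.9.

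Markers of the other islet cell type differed mainly in the ZT4 pairs, while acinar markers differed in all 4 pairs and most at ZT8. In alpha cells Ins1 and Ins2 took 0.506% of reads in the high and 0.109% in the low library at ZT4, and 0.0683% and 0.0805% at ZT8. In beta cells Gcg took 0.281% and 0.0166% at ZT4, and 0.0116% and 0.0048% at ZT8. In bulk RNA, fewer cells of a type and less RNA per cell cannot be told apart. Of the 18 beta identity genes 0 had the same sign in all 4 pairs, and the list's median at alpha ZT4 was 1.55. Its summed level in alpha cells ran from 1788 to 6704 RPKM in the high and from 1934 to 2361 RPKM in the low libraries. Alpha identity had 1 of 14 higher in all pairs, with a median of 0.61 at beta ZT4 and a summed level in beta cells of 1125 to 2833 RPKM in the high and 1067 to 1115 RPKM in the low libraries. Of 16 acinar markers 0 kept a sign, with summed levels of 96.4 to 350 RPKM in the high and 188 to 305 RPKM in the low alpha libraries, and 70.0 to 519 against 277 to 464 RPKM in beta cells. The endothelial, immune, stromal, glial and duct lists held 24 measured markers, of which 1 was higher and 3 lower in all 4 pairs. Of 5 delta cell and 3 PP cell markers, 1 and 0 were higher. Of the measured markers, 0 had 0 reads in all 8 libraries. The part of these cells in the differences was not tested.

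The 16 libraries not used for the split gave the test. An early score, the mean log2 value of Fos, Atf3 and Egr2, was related to each gene within the groups. Its differences between replicates were at most 0.79 there, against 2.34, 5.48, 1.67 and 3.06 in the 4 pairs of ZT4 and ZT8. This test thus had a narrow range of the score to work with. The 0.79 was at beta ZT20, where replicate 2 was higher, and the next largest difference was 0.31 at alpha ZT12. Slopes on this score, and their signs, therefore rest mainly on the beta ZT20 pair. No gene was called (limma, Benjamini-Hochberg adjusted p under 0.05, 0 of 14024, lowest adjusted p = 0.833), while 693 (4.94%) had an unadjusted p under 0.05, 370 with a positive (2.64%) and 323 with a negative slope (2.3%). Since nothing in the labels says that replicates are separate animals, p-values here reflect the spread between libraries alone, which may be technical. Of the 178 genes, 175 remain without the 3 of the score, and 154 of these (88.0%) had a positive slope, against 51.5% of all genes. Their median slope was 0.80 log2 units per unit of the score, against 0.01 for all genes. Of the 175, 19 had an unadjusted p under 0.05 with a positive and 1 with a negative slope. Slopes of genes are not independent of each other. Npas4 had a slope of 2.25 (SE 0.87), Gadd45g of 1.18 (SE 0.44) and Dnajb1 of 0.69 (SE 0.22), each with a limma adjusted p of 0.833. All 41 ribosomal protein genes had a negative slope (median -0.48), as did 43 of 44 respiratory chain genes, and all 5 nuclear RNAs had a positive one (median 0.95). The lowest p-values belonged to Epas1, which encodes the hypoxia factor HIF-2 alpha (slope 2.86, SE 0.53, limma adjusted p = 0.833), and Trip10 (slope 1.49, SE 0.31, limma adjusted p = 0.833). Neither was among the 178 genes.

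No gene had a slope that was called different between alpha and beta cells. The interaction called 0 of 14024 genes (limma, lowest adjusted p = 0.687), with 421 (3.00%) at an unadjusted p under 0.05. In alpha cells the score differed between replicates by at most 0.31, so this test had little range there and cannot show that the slopes are alike.

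A wider score, the mean over the 28 measured AP-1 and other early factors, gave another count. It called 3085 of 13999 genes (22.0%) in the same 16 libraries, 1556 positive (11.1%) and 1529 negative (10.9%). Of the 161 genes counted higher that are not in this score, 94 were called positive and 1 negative. Sik1 had a slope of 2.34 (SE 0.32, limma adjusted p = 0.00977), Malat1 of 1.67 (SE 0.28, limma adjusted p = 0.00984), Arc of 1.43 (SE 0.34, limma adjusted p = 0.0143) and Dnajb1 of 0.73 (SE 0.17, limma adjusted p = 0.0146). Of the ribosomal protein genes 32 of 41 and of the respiratory chain genes 31 of 44 were called negative. Leaving out both groups of 1 time, alternatives added after seeing the data, changed the calls. Without ZT0, 0 genes were called by limma and 839 had an unadjusted p under 0.05. Without ZT12 the calls were 2105 positive and 2178 negative, without ZT16 1377 and 1391, and without ZT20 707 and 668. The slopes without ZT0 were 1.87 for Sik1, 1.81 for Arc, 0.88 for Dnajb1 and 0.95 for Malat1 (limma adjusted p = 0.812 for each), and 130 of the 161 genes (80.7%) still had a positive slope, against 52.7% of all genes.

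The ZT0 libraries, which the split did not use, differed more at the median in the genes counted higher outside the early, feedback and heat shock lists than in those of the lists. Replicate 2 exceeded replicate 1 by 2.40 in alpha and 2.93 in beta cells for Meg3 on the log2 scale, and by 1.68 and 2.36 for Neat1. Hspa1a, a gene of the heat shock list, was also higher in replicate 2, by 1.22 and 1.20. The score of Fos, Atf3 and Egr2 differed by only 0.06 (replicate 1 higher) in alpha and 0.17 (replicate 2 higher) in beta cells, and the wider score by 0.37 and 0.62 (replicate 2 higher). Sik1 was higher in replicate 2 by 1.10 and 1.56. Of the 146 genes counted higher outside the early, feedback and heat shock lists, 140 were higher in replicate 2 of alpha ZT0 and 136 in replicate 2 of beta ZT0, with medians of 1.31 and 1.42. For the 32 genes of those lists the counts were 25 and 27 and the medians 0.37 and 0.64. Of all genes 45.8% in alpha and 48.7% in beta cells were higher in replicate 2. Ribosomal protein genes went the other way, with list medians of 0.48 in alpha and 0.60 in beta cells in favour of replicate 1. At ZT0, 785 genes in alpha and 1338 in beta cells were at least 2-fold apart between replicates, against 304 to 534 at ZT12, ZT16 and ZT20. The same counts were 782 at alpha ZT4, 851 at beta ZT4, 434 at alpha ZT8 and 515 at beta ZT8. Measures of RNA quality were not analysed here.

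**Figure D4:**
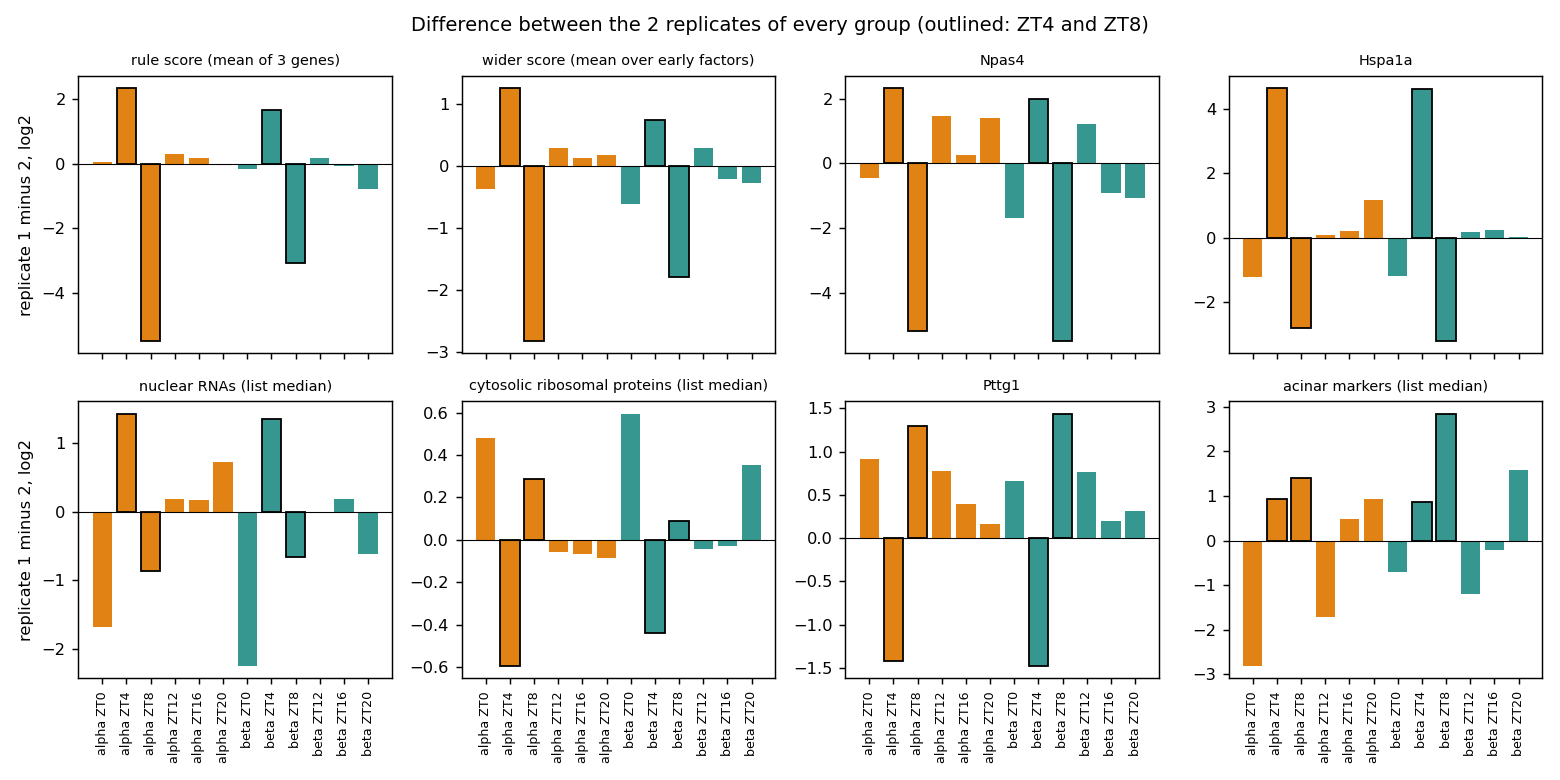
Log2 difference of replicate 1 minus replicate 2 in all 12 groups (alpha orange, beta green, ZT4 and ZT8 outlined) for the score of Fos, Atf3 and Egr2, the wider early score, 3 genes and the medians of 3 lists. The 3-gene score differs by at most 0.79 outside ZT4 and ZT8, whereas the nuclear RNA median reaches -1.68 and -2.25 at ZT0.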

How the data were processed

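Libraries were stranded and made from total RNA depleted of ribosomal RNA, per the labels' protocols. The authors used STAR, edgeR and the mm10 build, per the submitters' processing notes, which give no versions. The annotation, counting strand and gene filter remain not given in the sources used here.

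Deposited values are log2 RPKM with a prior count (mean 2.0): whole reads were recovered from their steps for all 14027 genes (largest deviation 8.3e-08). Log2 differences understate changes of genes with few reads. RPKM printed here come from these reads without a prior count.

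The libraries, members, gene lists and motifs were chosen with earlier results of these data known. The difference between the high and the low library was taken within each group. Slopes were fitted with limma 3.58.1 in R 4.3.3 on the deposited values (group as a factor of 8 levels, trend and robust estimation), adjusted by Benjamini-Hochberg over all genes tested, and the script was tested on simulated data. The plan assumed read counts or log2 values, so limma on log2 values was used. Alternatives were other scales, scalings, scores, covariates and groups left out.

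The naming rule took Fos, Atf3 and Egr2, the 10 largest mean differences in each direction among genes of the same sign in all 4 pairs with a mean log2 RPKM above 0, up to 4 members of each list, and the 10 lowest slope p-values. Predicted genes were not named. Lrrc45, Ttn, Egr4, Ier2, Fosl2, Pcsk1 and Scg2 were named after their values were seen. Of 14027 identifiers 13802 matched the GENCODE annotation of GRCm38. Of 177 symbols counted higher, 108 had a RefSeq promoter entry.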

Additional observations from a re-analysis of the deposited data

Results flagged for a closer look

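Acinar markers, genes of digestive enzymes, went opposite ways at the 2 times. The list median of 16 genes was higher in the high library by 0.93 at alpha ZT4 and 0.86 at beta ZT4 and lower by -1.40 at alpha ZT8 and -2.85 at beta ZT8, so that the mean of the ZT4 pairs exceeded that of the ZT8 pairs by 3.02 on the log2 scale. The same held for the chymotrypsinogen gene Ctrb1 (3.58) and the trypsinogen genes Try4 (3.75) and Try5 (3.26), whose reads may be shared with related genes. The difference between the times was not tested. Replicate 1 had the higher acinar median in all 4 pairs.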

How the results depend on the processing

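The count of genes higher by 2-fold in all pairs was 178 and fell to 57 with log2(RPKM + 1). It was 158 with log2(RPKM + 0.1), 119 above a mean log2 RPKM of 0, 179 with TMM factors, 248 with total reads, and 172 to 251 when a group was left out. Among alternatives chosen after seeing the data it was 414 in the ZT4 and 167 in the ZT8 groups, and 255 in alpha and 315 in beta cells. The count lower was 6, and 0 with log2(RPKM + 1), 10 with log2(RPKM + 0.1), 3 above a mean log2 RPKM of 0, 9 to 17 when a group was left out (10 without alpha ZT4, 17 without alpha ZT8, 15 without beta ZT4), 64 and 62 in the ZT4 and ZT8 groups, and 41 and 23 in alpha and beta cells. Of 41 named genes in these counts 0 changed sign under a setting, and of the 148 other named genes 58 did, such as Ctrb1, Try4, Try5, Gcg and Ins1.

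The slope count was 0 in each direction under the other scales, the filter, added covariates, voom and each group left out (386 to 2263 genes at an unadjusted p under 0.05 by limma). It was 1556 positive and 1529 negative with the wider score, and 934 and 1011 with Fos alone, the latter added after seeing the data. Added likewise, the wider score called 2105 and 2178 without ZT12, 1377 and 1391 without ZT16, 707 and 668 without ZT20, and 0 without ZT0. The difference of slopes between the cell types called 0 positive and 1 negative with log2(RPKM + 1), and 0 to 1 in each direction when a group was left out. Leaving out 1 replicate of a group removes the group from these fits. The edgeR and DESeq2 tests planned for read counts were not run, since the deposited unit is log2.

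Same-numbered alpha and beta libraries deviated together at ZT0 (r = 0.647 across genes), ZT4 (0.422) and ZT8 (0.338), and less at ZT12 (0.104), ZT16 (0.186) and ZT20 (0.041). Since r was not above 0.1 at every time, the numbers were not taken to pair the samples, although the consensus correlation within the block was 0.508 for the slope and 0.554 for its difference. With the replicate block the counts were 197 higher and 8 lower, the slope called 0 (1534 at an unadjusted p under 0.05, limma), the wider score 1250 positive and 1195 negative, and the difference of slopes 0 (851 at an unadjusted p under 0.05). Genes with few reads, such as Egr2 in beta cells, are limited by depth.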

Other observations

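Genes of the integrated stress response stood above the other beta libraries at ZT4 in both the high and the low library, and the low library was the higher of the pair (median log2 difference -0.41). Of 17 measured genes, 10 were above all 8 other beta libraries in the high and 12 in the low library, where 1490 and 2835 of all 14027 genes were. Their summed level ran from 303 to 620 RPKM in the low and from 423 to 480 RPKM in the high beta libraries, against 347 to 475 RPKM in the other 8. At beta ZT8, 0 of the 17 were above the others in either library and 10 were below them in the low library. Genes of cholesterol synthesis were below all 8 other beta libraries in the high library of ZT4 for 10 of 20 and in the low library of ZT8 for 9 of 20, where 1435 and 2405 of all genes were.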
